A study of Homo sapiens with 12 samples.

Results

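The data describe 2 related microRNAs (miRNAs), miR-26a and miR-26b, in the osteosarcoma line Saos-2 and in clones of it that were transfected with CD99 (Sa/CD99). They were chosen by name, as the array rows called hsa-miR-26a and hsa-miR-26b, and are 2 of the 851 human miRNA names on the array. The miRNA profiles came from 12 one-colour Agilent arrays, 2 for each cell type on each day. Day 0 was the basal condition, and days 7 and 14 were in osteogenic medium. In a change from day 0, days and medium therefore cannot be told apart. Sa/CD99 stands for clones 22 and 36, which carry a stably transfected CD99 and were selected with neomycin; each is 1 clone, and each gave 1 array per day. The comparison group was parental Saos-2, with replicates 1 and 2 on each day. The labels do not say whether those replicates were separate cultures, so the p-values below measure the spread between these arrays, which may be partly technical. The questions were whether either miRNA differed between Sa/CD99 and Saos-2, whether it changed with days in culture, and whether miR-26a followed miR-26b.

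miRNAs are short RNAs that pair with messenger RNAs, mainly through a seed near their 5′ end, and reduce the stability or translation of those messengers. The miR-26 genes lie inside genes of the CTDSP family of small phosphatases. Transcription of miR-26a and miR-26b is known to be repressed by MYC, and miR-26a is known to target EZH2, a histone methyltransferase, and SMAD1, a mediator of bone morphogenetic protein signalling in osteoblast differentiation. CD99 is a membrane glycoprotein.

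The mature sequences are shown first because both miRNAs carry 1 seed and differ at few positions, so that they bear on how alike the members are. They are from RefSeq (GRCh38.p14), written 5′ to 3′ with the seed, bases 2 to 8, in capitals.
miR-26a: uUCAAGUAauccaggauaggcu
miR-26b: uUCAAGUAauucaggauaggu
miR-1297: uUCAAGUAauucaggug
The array names miR-26a and miR-26b were matched to the 5′ arm products of RefSeq. Counted from 1 at the 5′ end of miR-26a, the members differ by the substitutions C11U and C21U, with 19 identical positions, and in length, 22 bases for miR-26a and 21 for miR-26b. The first 10 bases are identical. miR-26a is made from 2 genes, MIR26A1 at chr3:37969413-37969434 on the plus strand, inside CTDSPL, and MIR26A2 at chr12:57824658-57824679 on the minus strand, inside CTDSP2. An array signal for miR-26a cannot tell the 2 genes apart. miR-26b is made from MIR26B at chr2:218402657-218402677 on the plus strand, inside CTDSP1. miR-1297, which shares its first 15 bases with miR-26b, was the only other name on the array with this seed.

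The deposited value table and scanner files assign the arrays to different samples, and this bears on every comparison below. A table of normalized log2 values names its 12 columns by sample, and the scanner files are filed by sample. The pattern of detection in each table column matched 1 scanner array over all 847 shared names, and that array carried another sample's name for 12 of the 12 columns. Values are given first from the value table by its own labels, then from the scanner arrays under the table's labels, and then from the scanner arrays as filed; which labels are right was not tested. By the table's labels the 4 arrays of day 0 lay on slide 1 and those of day 14 on slide 2, while the day 7 arrays of Saos-2 lay on slide 1 and those of Sa/CD99 on slide 2. At days 0 and 14 the cell types were therefore compared within a slide, and at day 7 cell type and slide cannot be told apart. Under the filed names slide 1 held the 6 Sa/CD99 arrays and slide 2 the 6 Saos-2 arrays. The 4 arrays of lowest total signal, 8594 to 11371 against 25232 to 62236 on the others, were the 4 day 0 arrays by the table, and all 4 were filed as Sa/CD99. The number of detected miRNAs per array ran from 132 to 227. Of 10 miRNAs typical of mesenchymal cells 8 were detected on all 12 arrays, among them miR-21, miR-145 and miR-199a-3p, while miR-222 was detected on 11 and miR-143 on 0. Of the lists for other cell types, 0 of 6 epithelial, 0 of 5 blood and 0 of 3 muscle miRNAs and the liver miRNA miR-122 were detected on any array. Of 3 neural miRNAs, miR-128 was detected on 6 arrays, miR-9 on 1 and miR-124 on 0.

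miR-26b was lower in both Sa/CD99 clones than in both Saos-2 replicates on each of the 3 days in the value table. The difference passed the study's threshold at day 14. How many of all miRNAs separated in this way was not counted, so the separation alone does not set miR-26b apart. Its log2 values in the table were as follows. At day 0, miR-26b was at 3.29 in clone 22 and 2.61 in clone 36, against 3.55 and 3.78 in Saos-2 replicates 1 and 2. At day 7 it was at 2.39 and 0.45 in the clones and at 3.27 and 2.61 in Saos-2. At day 14 it was at -0.38 and 0.84 in the clones and at 2.50 and 3.37 in Saos-2. The 4 lowest values of miR-26b were thus those of the clones at days 7 and 14, and the day 7 clones stood farther apart than the arrays of any other group.

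As group means, miR-26b in Sa/CD99 was at 2.95 ± 0.48 at day 0, 1.42 ± 1.38 at day 7 and 0.23 ± 0.86 at day 14 (SD, n = 2 in each). In Saos-2 it was at 3.66 ± 0.16, 2.94 ± 0.46 and 2.94 ± 0.61 on the same days. The difference at day 14 was -2.70 (SE 0.72, 95% interval -4.36 to -1.05), a level 6.51-fold lower in Sa/CD99, with a Benjamini-Hochberg adjusted p of 0.0780 over 219 miRNAs (limma, unadjusted p of 0.00559). It was called by the study's rule for the comparison on 1 day, p of at most 0.01 and a change of at least 1.4-fold. By that rule 9.13% of the 219 miRNAs tested were called at day 14, and 2.28% were called as lower. Of the 100 miRNAs detected on all 12 arrays, to which both members belong, 6.00% were called as lower at day 14, 76.0% had a difference below 0 and the median was -0.49, so that miR-26b was at -2.21 relative to that median. The differences at day 0, -0.71 (SE 0.72, limma adjusted p = 0.9996), and at day 7, -1.52 (SE 0.72, limma adjusted p = 0.656), were not called; of all miRNAs 2.74% and 3.20% were called on those days. Over the 3 days the difference was -1.65 (SE 0.41), 3.13-fold lower, with a limma adjusted p of 0.0918, which missed the 0.05 that 2.74% of the miRNAs passed.

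The day 14 call of miR-26b rested on the arrays in the fit. Without clone 22 at day 14 the difference was -2.09 (limma adjusted p = 0.349), and without Saos-2 day 14 replicate 2 it was -2.27 (limma adjusted p = 0.418), and neither was called. Without Saos-2 day 14 replicate 1 it was -3.14 (limma adjusted p = 0.0630) and was not called either. Leaving out Saos-2 replicate 1 of day 0 or of day 7 kept the difference at -2.70 and moved the unadjusted limma p to 0.0101 in each case, just past the threshold. With the other 7 arrays left out in turn the call was kept. At day 7 the difference turned on the clone in the fit. Without clone 36 at day 7 it was -0.54 (limma adjusted p = 0.932). Without clone 22 at day 7 it was -2.49 and was called (limma adjusted p = 0.212), as were 4.07% of all miRNAs in that fit. The difference over the 3 days without clone 22 at day 7 was -1.97 and passed (limma adjusted p = 0.0373), as did 2.26% of all miRNAs.

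miR-26a was lower in both clones than in both Saos-2 replicates at days 0 and 14 but not at day 7. In the value table it was at 4.00 in clone 22 and 3.93 in clone 36 at day 0, against 4.81 and 5.05 in Saos-2 replicates 1 and 2. At day 7 the clones were at 4.60 and 3.86 and the Saos-2 replicates at 4.28 and 4.24. At day 14 the clones were at 2.94 and 3.16 and the Saos-2 replicates at 3.95 and 5.21. The groups overlapped at day 7 only, where the Saos-2 values lay between those of the clones. How common such a separation was among all miRNAs was not counted.

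The means of miR-26a in Sa/CD99 were 3.96 ± 0.05, 4.23 ± 0.52 and 3.05 ± 0.16 at days 0, 7 and 14 (SD, n = 2 in each), and those in Saos-2 were 4.93 ± 0.17, 4.26 ± 0.03 and 4.58 ± 0.89. At day 14 the difference was -1.53 (SE 0.46, 95% interval -2.60 to -0.46), a level 2.89-fold lower in Sa/CD99. Its adjusted p was 0.104, and its unadjusted limma p of 0.0109 fell just outside the study's threshold. With no filter on undetected miRNAs the same difference had an unadjusted limma p of 0.00696 and was called, as were 2.59% of the 851. Over the 100 miRNAs detected on all 12 arrays its unadjusted limma p was 0.00537 and it was called, as were 7.00% of them. Without Saos-2 day 14 replicate 1, the lower of that pair, the difference was -2.16 and was called (limma adjusted p = 0.0179), as were 15.7% of the 236 miRNAs then tested, against 9.13% with all arrays. Without replicate 2 it was -0.90 (limma adjusted p = 0.506). The differences at day 0, -0.97 (SE 0.46, limma adjusted p = 0.9996), and at day 7, -0.03 (SE 0.46, limma adjusted p = 0.996), were not called. Over the 3 days the difference was -0.84 (SE 0.27), 1.79-fold lower, with a limma adjusted p of 0.188. Leaving out Saos-2 day 14 replicate 1 gave -1.05 over the 3 days, with a limma adjusted p of 0.0325, where 8.47% of the miRNAs passed, against 2.74% with all arrays.

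**Figure D1:**
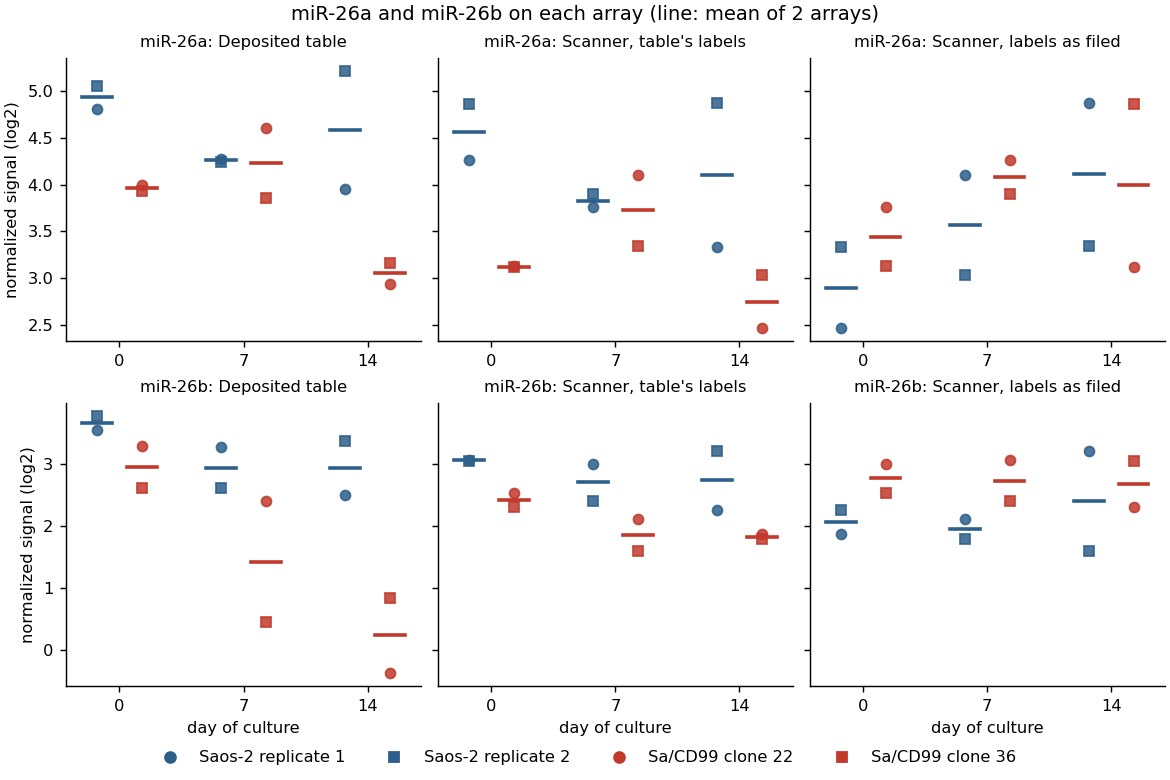
Normalized log2 signal (vertical axis) of miR-26a (upper row) and miR-26b (lower row) against the day of culture (horizontal axis) in the deposited value table, in the scanner arrays under the table's labels and in the scanner arrays as filed, the last 2 after the rma-type summary. Each point is 1 array, red for Sa/CD99 and blue for Saos-2, and each line is the mean of 2 arrays. In the table both Sa/CD99 values of miR-26b lie below both Saos-2 values on each day, while as filed the Sa/CD99 means of miR-26b lie above those of Saos-2.

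In order of the table's means, miR-26b was highest in Saos-2 at day 0, followed by Sa/CD99 at day 0, Saos-2 at day 7, Saos-2 at day 14, Sa/CD99 at day 7 and Sa/CD99 at day 14. The ranges of neighbours in that order were separate between Saos-2 at day 0 and Sa/CD99 at day 0 and between Saos-2 at day 14 and Sa/CD99 at day 7, and overlapped otherwise. For miR-26a the order was Saos-2 at days 0, 14 and 7, then Sa/CD99 at days 7, 0 and 14. There the ranges of neighbours overlapped except between Sa/CD99 at day 0 and Sa/CD99 at day 14.

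The probes that entered the signal of each member differed between arrays. Each member has 2 probes, each printed on 8 spots, and the scanner software adds the probes it counts as detected into a total gene signal per miRNA. The value table was found to hold the log2 of that total after quantile normalization over 961 features, to within 0.198 log2 units. For miR-26b the total came from 1 probe on 4 of 6 Sa/CD99 arrays (both of day 0, clone 36 at day 7 and clone 22 at day 14) and on 1 of 6 Saos-2 arrays (replicate 1 of day 0). On the arrays concerned the probe left out had a signal between 1.20 and 2.40. For miR-26a the total came from 1 probe in the 2 clones at day 0 and from both probes on the other 10 arrays. Under the filed names the totals of miR-26b from 1 probe lay on 3 of 6 Sa/CD99 and 2 of 6 Saos-2 arrays. Among 100 miRNAs detected on all arrays, 35 lacked a probe on at least 1 array. Of the 1200 totals of these 100 miRNAs, 19.1% lacked a probe.

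At day 14 the 2 probes of miR-26b read 2.04 and 4.16 in clone 22, the first of them left out of the total, and 3.36 and 4.85 in clone 36. They read 3.32 and 4.93 in Saos-2 replicate 1 and 8.45 and 15.4 in Saos-2 replicate 2. These signals are not normalized between arrays. Saos-2 replicate 2 stood far above the other 3 arrays with either probe. The probes of miR-26a at day 14 read 3.79 and 11.3 in clone 22 and 4.66 and 14.6 in clone 36, against 4.83 and 15.1 in Saos-2 replicate 1 and 18.4 and 54.5 in replicate 2. The same array was again far above the rest.

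**Figure D2:**
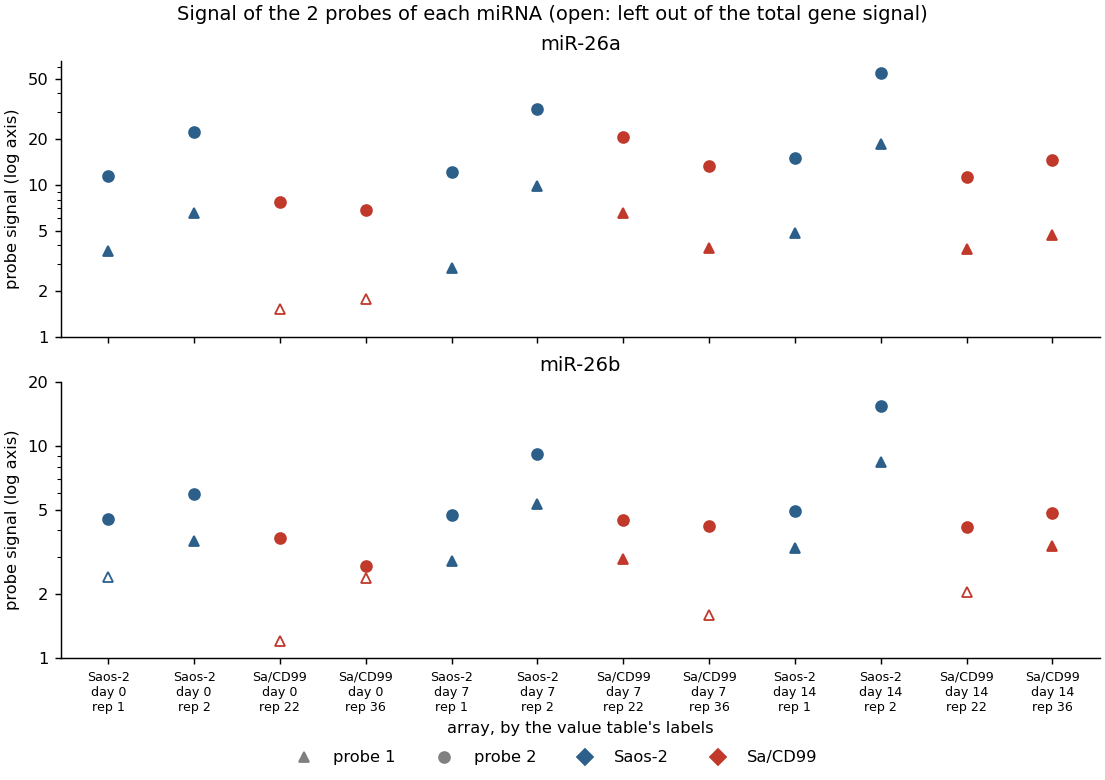
Signal of each of the 2 probes (triangle, probe 1; circle, probe 2) of miR-26a and miR-26b on a log axis, for the 12 arrays in the order of the value table's labels, red for Sa/CD99 and blue for Saos-2. Open symbols mark probes left out of the total gene signal, on 2 arrays for miR-26a and 5 for miR-26b; the values are not normalized between arrays.

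When every probe was summed on every array and the sums were quantile normalized, miR-26b was still lower in Sa/CD99 at each day by the table's labels, by less. The differences were -0.36, -0.61 and -1.02 at days 0, 7 and 14, and at day 14 the limma adjusted p was 0.287 and the difference was not called. The totals scaled to their 75th percentile, which leave out the same probes as the table, gave -1.02 at day 14 as well, while quantile normalizing the table again gave -3.80. The size of the miR-26b difference thus moved with the scaling also where the probes were the same, and the part of the left-out probes in it was not tested. The miR-26a difference at day 14 was -1.34 in the sums of every probe and was called (limma adjusted p = 0.238), as were 4.11% of all miRNAs. In the totals scaled to their 75th percentile it was -0.92. With the rma-type summary of all spots under the table's labels, miR-26b differed by -0.64, -0.85 and -0.91 at days 0, 7 and 14, and miR-26a by -1.44, -0.10 and -1.35. None of these 6 was called, while 4.57%, 1.83% and 4.57% of all miRNAs were called on the 3 days. At day 14 the limma adjusted p was 0.229 for miR-26b and 0.218 for miR-26a. Over the 3 days this summary gave -0.80 (SE 0.21) for miR-26b and -0.97 (SE 0.27) for miR-26a, both with a limma adjusted p of 0.128, where 0.913% of all miRNAs passed 0.05. Taken singly at day 14 under the table's labels, the 2 probes of miR-26b differed by -1.02 and -1.13 and those of miR-26a by -1.43 and -1.31, so that on that day the probes of each miRNA had the same sign and a similar size. The probes of miR-26b were also both below 0 at day 0 (-0.71 and -0.48) and at day 7 (-0.98 and -0.58). Those of miR-26a read -2.21 and -0.997 at day 0 and 0.27 and -0.078 at day 7, where their signs differed.

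As the scanner arrays were filed, the differences of miR-26b had the opposite sign. They were 0.71 (limma adjusted p = 0.376), 0.78 (limma adjusted p = 0.554) and 0.28 (limma adjusted p = 0.732) at days 0, 7 and 14, and 0.59 over the 3 days (SE 0.33, limma adjusted p = 0.156). Those of miR-26a were 0.54, 0.51 and -0.12 on the 3 days and 0.31 over them (SE 0.43, limma adjusted p = 0.541). None was called; 2.35%, 0% and 7.04% of all miRNAs were called on the 3 days, and 42.7% over them. As filed, cell type cannot be told apart from slide. The direction of the summarised values between the cell types therefore depends on which labels are used for miR-26b on each day. For miR-26a it does so at days 0 and 7 and over the 3 days, while miR-26a at day 14 was below 0 under both. The single probes did not all turn with the labels. As filed, the 2 probes of miR-26b differed by -0.0483 and 1.09 at day 0. At days 7 and 14 they differed by 0.45 and 0.99 and by -0.0235 and 0.27. Those of miR-26a differed by -0.46 and 0.88, 0.61 and 0.62, and -0.44 and 0.15 on the 3 days.

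**Figure D3:**
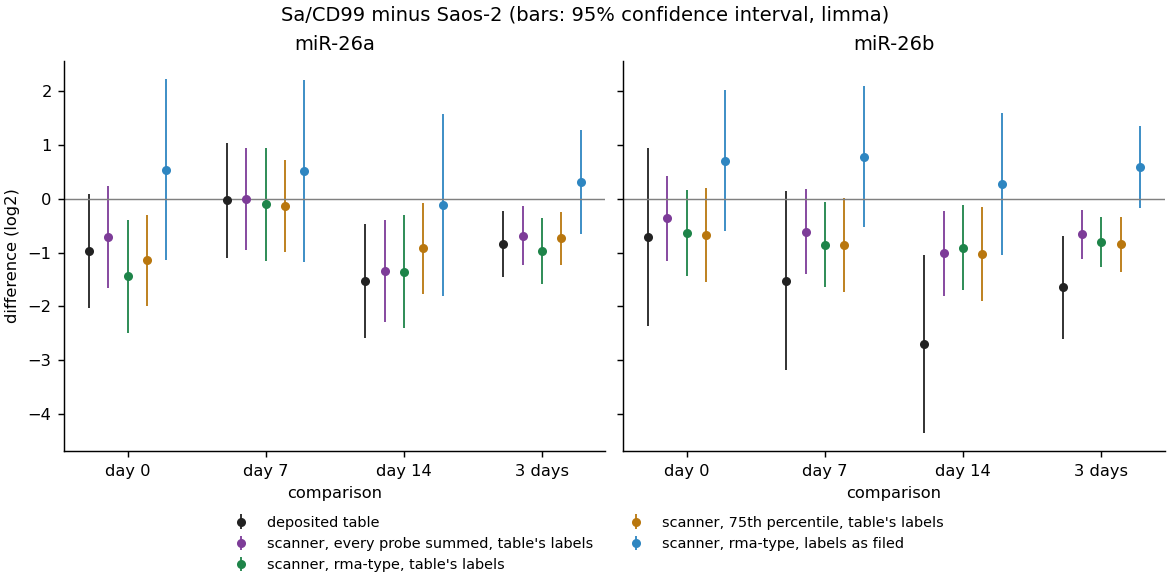
Sa/CD99 minus Saos-2 (vertical axis, log2) for miR-26a and miR-26b at days 0, 7 and 14 and over the 3 days (horizontal axis). Points are limma estimates and bars their 95% confidence intervals; colours stand for the value table, 3 ways of summing the scanner signals under the table's labels, and the scanner arrays as filed. Under the table's labels miR-26b lies below 0 throughout, from -2.70 to -0.91 at day 14, while as filed it lies above 0 with intervals that cross it.

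Within Sa/CD99, miR-26b was lower at day 14 than at day 0 in the value table by -2.72 (SE 0.72), a 6.57-fold lower level, with a limma adjusted p of 0.00976. That threshold, an adjusted p of at most 0.05, was passed by 74.4% of all miRNAs in this comparison and by 37.4% as lower, and the median of all miRNAs was -0.64. Relative to that median miR-26b was at -2.08. The change of miR-26a was -0.91, or -0.27 relative to the same median. Among the 100 miRNAs detected on all arrays, however, the median was -1.57, and 82.0% passed, 71.0% as lower. Relative to those miRNAs miR-26b was at -1.15 and miR-26a at 0.66. Without clone 22 at day 0 the change was -2.38 (limma adjusted p = 0.0549), and without clone 22 at day 14 it was -2.11 (limma adjusted p = 0.0683). Days 0 and 14 lay on different slides, so day and slide cannot be told apart, and the low total signals were those of day 0.

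In Saos-2 the change of miR-26b from day 0 to day 14 was -0.73 (SE 0.72, limma adjusted p = 0.399), where 55.7% of all miRNAs passed and 26.9% passed as lower. Of those detected on all arrays 64.0% passed, 53.0% as lower, with a median of -1.15, and miR-26b was at 0.42 relative to it. For miR-26a the change was -0.91 in Sa/CD99 (SE 0.46, limma adjusted p = 0.103) and -0.35 in Saos-2 (SE 0.46, limma adjusted p = 0.522). The change of miR-26a in Sa/CD99 stayed at -0.91 and passed without Saos-2 day 14 replicate 1 (limma adjusted p = 0.0395) or replicate 2 (limma adjusted p = 0.0378), as did 69.5% and 75.2% of all miRNAs. From day 0 to day 7 miR-26b changed by -1.53 in Sa/CD99 and -0.72 in Saos-2, and miR-26a by 0.27 and -0.67. From day 7 to day 14 miR-26b changed by -1.19 in Sa/CD99 and by 0.00 in Saos-2, and miR-26a by -1.18 and 0.33. None of these 8 further changes passed with all 12 arrays. Without clone 22 at day 7 the change of miR-26b from day 0 to day 7 in Sa/CD99 was -2.50 and passed (limma adjusted p = 0.0323), as did 27.1% of all miRNAs, while without clone 36 at day 7 it was -0.56 (limma adjusted p = 0.652). The change of miR-26a from day 7 to day 14 in Sa/CD99 stayed at -1.18 and passed without Saos-2 day 14 replicate 1 (limma adjusted p = 0.0479) or replicate 2 (limma adjusted p = 0.0457), where 19.1% and 20.7% of all miRNAs passed. Of all miRNAs, 32.0% (Sa/CD99) and 36.5% (Saos-2) did so between days 0 and 7, and 19.6% and 0% between days 7 and 14, the 0% beside 19 miRNAs with an unadjusted limma p under 0.05.

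The sign of the change over time moved with the labels and with the scaling. As the scanner arrays were filed, the change from day 0 to day 14 in Sa/CD99 was -0.088 for miR-26b and 0.55 for miR-26a, and in Saos-2 it was 0.34 and 1.21. As filed 0% of the 213 miRNAs tested passed in limma in each of the 6 comparisons between days, where 0 to 11 miRNAs had an unadjusted p under 0.05, and the members shared this with all the others. With the total gene signals scaled to their 75th percentile, miR-26b went up by 0.24 from day 0 to day 14 in Sa/CD99, where the median of all miRNAs was 0.35, and miR-26a by 0.59. Relative to that median they were at -0.11 and 0.24. With the rma-type summary under the table's labels miR-26b was at -0.59 in Sa/CD99, or -0.28 relative to the median of all miRNAs, and did not pass (limma adjusted p = 0.160), while 71.2% of all miRNAs did. The interaction of cell type and day did not pass for miR-26b (F = 1.95, limma adjusted p = 0.761) or for miR-26a (F = 2.70, limma adjusted p = 0.635), while 1.83% of all miRNAs passed. The days were thus not shown to differ in the effect of cell type on either member.

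Across the 12 arrays miR-26a followed miR-26b. In the value table Pearson's r was 0.829 (permutation p = 0.0007, two-sided) and Spearman's rho 0.830 (permutation p = 0.0014). These permutations treat the arrays as exchangeable, which arrays of 1 group are not beyond their group. Without the 2 arrays farthest from the median of miR-26b r was 0.804 over 10 arrays, and over the 8 arrays with total signals of at least 25232 it was 0.850. Of the deviations from the 6 group means r was 0.740, so that arrays of 1 group with a higher miR-26b also tended to a higher miR-26a. The rma-type summary gave r = 0.753 over 12 arrays (permutation p = 0.0055) and the sums of every probe r = 0.812 (permutation p = 0.0013). The correlation over all arrays does not depend on the labels, since both values come from the same array. That of the deviations does: with the rma-type summary r was 0.719 by the table's labels and 0.884 as filed. Spearman's rho of the same deviations was 0.49 by the table's labels and 0.85 as filed. Depth and normalization are shared by both values of an array. The members also have 19 identical positions, and whether the probes of 1 member also bound the other was not tested.

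**Figure D4:**
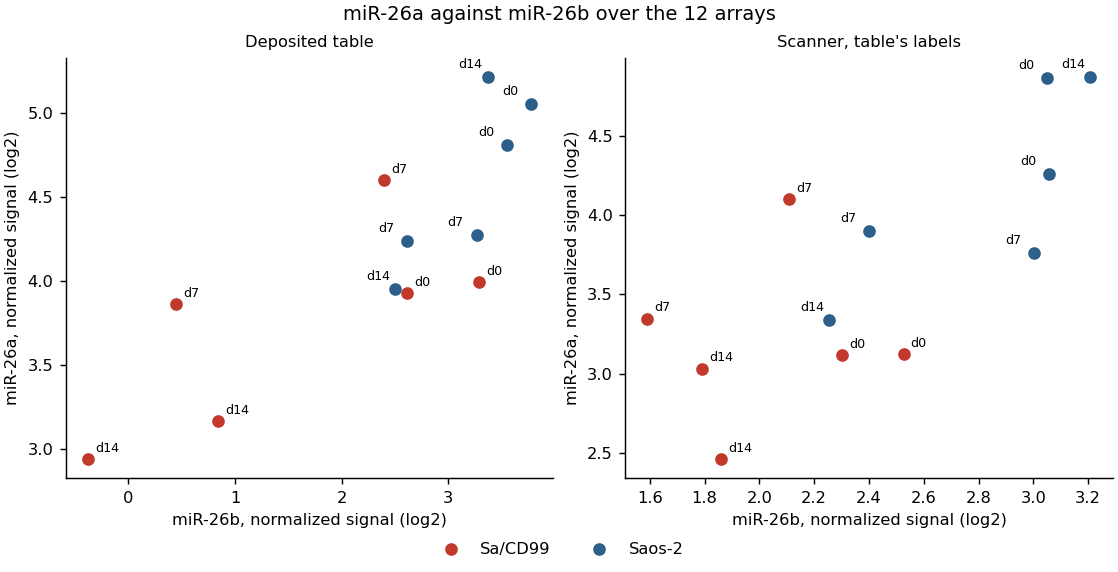
miR-26a (vertical axis) against miR-26b (horizontal axis), both as normalized log2 signal, in the deposited value table and in the scanner arrays after the rma-type summary. Each point is 1 of the 12 arrays, labelled with its day (d) and coloured by cell type after the table's labels; r was 0.829 in the table and 0.753 in the scanner arrays.

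Many other miRNAs rose and fell across the arrays as these did. Over the 12 arrays the median r of miR-26a with the 99 other miRNAs detected on all arrays was 0.451, and that of miR-26b was 0.625. In the value table miR-26b ranked 3 among the 99 in likeness to miR-26a, after miR-361-5p (r = 0.840) and miR-17 (r = 0.835), and before miR-20a (r = 0.813) and miR-27b (r = 0.812). miR-26a ranked 9 in likeness to miR-26b, whose closest were miR-361-5p (r = 0.926), miR-19b (r = 0.915), miR-19a (r = 0.909), miR-342-3p (r = 0.902) and miR-301a (r = 0.879). miR-17, miR-20a, miR-19a and miR-19b belong to the miR-17-92 family of clusters, which is known to be activated by MYC. With the rma-type summary the members ranked 11 and 10 in likeness to each other among 98 miRNAs, and miR-17 (r = 0.820) and miR-19b (r = 0.878) led for miR-26a and miR-26b. With every probe summed miR-26b ranked 10 of 98 in likeness to miR-26a, where the median r was 0.437, and miR-26a ranked 21 of 98 in likeness to miR-26b, where the median r was 0.716.

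Between the cell types the balance of the members was not shown to differ. In the value table the log2 ratio of miR-26a to miR-26b, taken within each array, was 0.80 higher in Sa/CD99 than in Saos-2 over the 3 days, with p = 0.0648 in an exact two-sided permutation of cell type within days (216 arrangements, smallest possible p 0.00926). By day the difference in log ratio was -0.25, 1.49 and 1.17 at days 0, 7 and 14. Without clone 22 at day 0 it was 0.91 over the 3 days (exact permutation p = 0.00926, the smallest possible). With every probe summed it was -0.021 (exact permutation p = 0.907), with the rma-type summary under the table's labels -0.17 (p = 0.611) and as filed -0.28 (p = 0.241). At day 7 the ratio was higher in Sa/CD99 in each of the ways of summing under the table's labels. It was higher by 0.61 with every probe summed and by 0.75 with the rma-type summary. On that day cell type and slide cannot be told apart under these labels, and as filed the difference was -0.27. Quantile normalizing the table again raised the difference in log ratio over the 3 days to 1.29. The sign and size of that difference thus depended on how the signals were summed and normalized.

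The other arms of the miR-26 precursors were at or below the detection limit. miR-26a-1* and miR-26b* were detected on 0 of 12 arrays and miR-26a-2* on 1 of 12, clone 36 at day 0 by the table's labels, with a total signal of 2.27. miR-1297 was detected on 0 of 12 arrays. None of the spots of miR-26a or miR-26b was saturated.

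The 2 clones stood in no fixed order. In the value table clone 22 minus clone 36 was 0.67, 1.95 and -1.22 for miR-26b and 0.07, 0.74 and -0.22 for miR-26a at days 0, 7 and 14. Both members were higher in clone 22 at days 0 and 7 and in clone 36 at day 14. With the rma-type summary the clone difference of miR-26b was 0.22, 0.52 and 0.07, and at day 14 it thus no longer favoured clone 36. The widest gap between Saos-2 replicates was that of miR-26a at day 14, -1.26 for replicate 1 minus replicate 2.

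Both members belong to a list of 20 miRNAs known to be repressed by MYC, of which 13 were tested. Over the 3 days 1 of the 13 was called as higher and 1 as lower, where 2.74% of all miRNAs were called in either direction, and the median difference was -0.39 against 0.10 over all 219 miRNAs. As filed that median turned to 0.81, with 1 of the 13 below 0, against 0.22 over the miRNAs named alike in both files. The called miRNAs were miR-195, a member of the miR-15 family, at -3.78 (SE 0.67, limma adjusted p = 0.0277) and miR-34a, a target of p53, at 3.57 (SE 0.50, limma adjusted p = 0.00771). miR-195 was detected on 8 of 12 arrays and miR-34a on 10, and differences against undetected values depend on the floor of the table. miR-30b was at -1.41 (limma adjusted p = 0.264). At day 14, 11 of the 13 were lower in Sa/CD99, with a median of -0.69, where 50.2% of all miRNAs were lower and the median was 0.00. Among miRNAs detected on all arrays 10 of 11 list members were lower at day 14 with a median of -0.69, and so were 76.0% of all 100 with a median of -0.49. At day 14, 1 of the 13, miR-26b, was called as lower, against 2.28% of all miRNAs. With the rma-type summary under the table's labels 11 of the 13 were again lower at day 14 (median -0.57), with the totals at their 75th percentile 8 of 13 (median -0.26 against 0.31 over all miRNAs), and as filed 2 of 13 (median 0.68 against 0.11).

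miR-26a also belongs to a list of 24 miRNAs linked to osteoblast differentiation, of which 14 were tested. None of the 14 passed an adjusted p of 0.05 over the 3 days, where 2.74% of all miRNAs did, and their median difference was -0.11 against 0.10 over all miRNAs. It was 0.03 with the totals at their 75th percentile, against 0.19 over all miRNAs, and 0.84 as filed, against 0.22. The 4 members with the largest differences were miR-34c-5p at 2.26 (limma adjusted p = 0.0537), miR-27a at -1.90 (limma adjusted p = 0.343), miR-30c at -1.26 (limma adjusted p = 0.188) and miR-21 at -0.86 (limma adjusted p = 0.343). miR-34c-5p was detected on 5 of 12 arrays. From day 0 to day 14 in Sa/CD99, 8 of the 14 passed as lower and 1 as higher, where 37.4% and 37.0% of all miRNAs did, and the median was -1.32 against -0.64 over all miRNAs. In Saos-2, 8 passed as lower and 0 as higher, where 26.9% and 28.8% of all miRNAs did, with a median of -1.37 against -0.47. Of the miRNAs detected on all arrays the 13 in the list had medians of -1.41 in Sa/CD99 and -1.40 in Saos-2, against -1.57 and -1.15 over all 100. As filed the medians of the 14 were 0.33 in Sa/CD99 (2 of 14 below 0) and 0.45 in Saos-2 (3 of 14 below 0), against 0.05 and 0.03 over the 217 miRNAs named alike in the table and the scanner files. With the totals at their 75th percentile they were -0.29 and -0.57, against 0.26 and 0.11 over those 217. miR-26a was not among those that passed in either cell type.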

How the data were processed

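Total RNA of 12 samples was labelled with Cy3 and hybridised to Agilent human miRNA arrays. The authors scanned the arrays and deposited the spot intensities given by Feature Extraction (version 10.7.3.1 per the file headers), which had no normalization between arrays, and log2 values which the authors had normalized (the submitters' processing notes name RMA). The scale of these log2 values was found by setting each column against the scanner totals (maximum difference 0.198 log2 units over 2096 values); undetected miRNAs stand at each column's minimum.

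Groups follow the sample titles. miR-26a and miR-26b, the lists and the tests were chosen with earlier results of these data known. A miRNA was tested when 1 or more groups had it detected on each of their arrays, as held for 219 of 851. limma 3.58.1 (R 4.3.3) fitted the 6 groups (6 residual degrees of freedom). Differences on 1 day were called at p of at most 0.01 and 1.4-fold (log2 0.485), as in the study's methods; the others at 0.05 after Benjamini-Hochberg adjustment. Scanner arrays were summarised by a published form of rma (background, quantile normalization, median polish over spots), by totals scaled to the 75th percentile, or by summing every probe. Clone numbers name the same clones on each day; deviations of same-numbered arrays from their group means correlated over 219 miRNAs with r from 0.0338 to 0.184 in Sa/CD99 and from 0.180 to 0.203 in Saos-2. Named miRNAs were the members, the other arms and seed matches, the 5 with the most similar pattern to each and up to 4 per list with the largest difference over the 3 days. The fits were tested on simulated data. Array data give no counts, so the number of arrays limits the precision. Gene expression arrays were not used here.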

Additional observations from a re-analysis of the deposited data

How the results depend on the processing

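Under the labels as filed (rma-type summary), the Sa/CD99 minus Saos-2 differences of miR-26a turned to 0.54, 0.51 and 0.31 at day 0, at day 7 and over the 3 days, and those of miR-26b to 0.71, 0.78, 0.28 and 0.59 at days 0, 7 and 14 and over them. From day 0 to day 14 the change of miR-26a turned to 0.55 in Sa/CD99 and 1.21 in Saos-2, and that of miR-26b was -0.088 in Sa/CD99 and 0.34 in Saos-2. In Saos-2 the filed labels also gave 0.67 for miR-26a from day 0 to day 7 and 0.45 for miR-26b from day 7 to day 14. In Sa/CD99 they gave miR-26b -0.036 from day 0 to day 7 and -0.052 from day 7 to day 14. The log ratio was -0.28 as filed. Under the table's labels the rma-type summary gave miR-26b -0.91 at day 14 and -0.59 from day 0 to day 14 in Sa/CD99, neither called. From day 7 to day 14 it gave miR-26b -0.025 in Sa/CD99 and 0.030 in Saos-2, and its log ratio was -0.17. Totals at the 75th percentile gave miR-26b -1.02 at day 14, not called, and miR-26a -0.92. With them the change from day 0 to day 14 was 0.59 (miR-26a) and 0.24 (miR-26b) in Sa/CD99 and 0.36 and 0.59 in Saos-2. That of miR-26b was 0.20 in Sa/CD99 and 0.37 in Saos-2 from day 0 to day 7, and 0.044 and 0.21 from day 7 to day 14. Centring the table on its medians gave miR-26a -1.14 for Sa/CD99 minus Saos-2 at day 14. From day 0 to day 14 it gave miR-26a 0.21 in Sa/CD99 and 0.38 in Saos-2. For miR-26b it gave -1.59 (limma adjusted p = 0.0737) and 0.000996. From day 7 to day 14 in Saos-2 it gave miR-26b 0.23. Quantile normalizing the table again gave 0.045 there. With every probe summed, an alternative chosen after seeing the data, the day 14 difference was -1.34 for miR-26a (called) and -1.02 for miR-26b (not called). The log ratio was -0.021. From day 7 to day 14 these sums gave miR-26b -0.37 in Sa/CD99 and 0.030 in Saos-2. From day 0 to day 14 in Sa/CD99 they gave miR-26b -1.25, or -0.39 relative to the median of all miRNAs. The filters on undetected miRNAs kept -1.53 for miR-26a at day 14 and made it a call. A fit of the 4 arrays of day 14 alone (limma adjusted p = 0.139) and an adjusted p of 0.05 as the call each kept -2.70 for miR-26b and ended its call. The cause of these changes was not tested.

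Leaving out 1 array at a time gave, for Sa/CD99 minus Saos-2 in miR-26a, -1.09 to -0.85 at day 0, -0.40 to 0.34 at day 7, -2.16 to -0.90 at day 14 and -1.05 to -0.63 over the 3 days. For miR-26b it gave -1.05 to -0.38, -2.49 to -0.54, -3.31 to -2.09 and -1.97 to -1.32. From day 0 to day 14 the range was -1.02 to -0.80 in Sa/CD99 and -0.98 to 0.28 in Saos-2 for miR-26a, and -3.32 to -2.11 and -1.16 to -0.30 for miR-26b. From day 0 to day 7 it was -0.10 to 0.64 (Sa/CD99) and -0.80 to -0.55 (Saos-2) for miR-26a and -2.50 to -0.56 and -1.05 to -0.40 for miR-26b. From day 7 to day 14 it was -1.55 to -0.81 and -0.30 to 0.95 for miR-26a and -2.16 to -0.21 and -0.44 to 0.43 for miR-26b. The log ratio ran from 0.60 to 1.01 and the correlation from 0.739 to 0.870.

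With the replicate number as a block the day 14 differences stayed at -2.70 for miR-26b (limma adjusted p = 0.0952) and -1.53 for miR-26a (limma adjusted p = 0.111), and the block changed no call of either member. Over all miRNAs it moved the calls over the 3 days from 6 to 3. Days 0 and 14 alone, each within 1 slide and chosen after seeing the data, gave -1.25 for miR-26a and -1.71 for miR-26b over those days. Slide as a random block could not be fitted, because each group lay on 1 slide by the table's labels. There were 2 arrays per group and 6 residual degrees of freedom. Differences as large as -1.53 (miR-26a at day 14) and -1.65 (miR-26b over the 3 days) did not pass. The correlation passed under every alternative processing tried, from 0.603 to 0.829.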
